A study of Sus scrofa with 41 samples.

Results

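Myostatin and 8 regulators of muscle formation were followed in the psoas major muscle of 41 pigs. The 9 genes, MSTN, FST, ACVR2B, PAX7, MYF5, MYOD1, MYOG, MYF6 and MEF2C, were chosen by name from 25880 annotated genes, each by its pig Ensembl symbol, and their unstranded read counts were set against breed, age in days, RNA integrity number (RIN) and feed conversion ratio (FCR). The pigs were purebred uncastrated males, 13 labelled Danbred_Duroc and 28 labelled Danbred_Landrace, fed freely up to slaughter weight on a test station, and the muscle was taken immediately after slaughter. Duroc pigs were 131 to 156 days old (median 148) and Landrace pigs 147 to 166 days old (median 154.5). FCR ran from 1.83 to 2.18 in Duroc (median 1.94) and from 1.92 to 2.25 in Landrace (median 2.1). The sources used here describe FCR in both directions, and values above 1 can only be feed per unit of gain, so a higher FCR is read here as less efficient growth. RIN was 7.0 to 8.8 in Duroc (median 8.2) and 6.5 to 8.3 in Landrace (median 8.0).

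Myostatin is a secreted growth factor made by muscle that holds back muscle growth. It binds the activin type II receptor ACVR2B, the receptor complex phosphorylates SMAD proteins, and follistatin (FST) binds myostatin and keeps it from its receptor. The myogenic regulatory factors MYF5, MYOD1, MYOG and MYF6 are basic helix-loop-helix proteins that commit cells to muscle and drive differentiation, MEF2C acts beside them, and PAX7 marks the satellite cells from which adult muscle is repaired.

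All 9 genes were detected in each of the 41 pigs. Total counts on genes were 22188911 to 25954816 per pig, and the genes differed widely in the counts behind them. MYF6, MEF2C and MYOG had at least 1702, 2327 and 530 counts in every pig, MYOD1 and MSTN at least 49 and 40, ACVR2B at least 32, and PAX7 and FST at least 18. MYF5 had 2 to 79 counts with a median of 25, and 2 pigs had fewer than 5, so its values are the least precise. Levels are given as CPM, counts divided by the TMM-scaled library size and put on a common total. They are not adjusted for transcript length and are compared between pigs, not between genes. In all 9 genes the 2 strand-specific counts summed exactly to the unstranded count, so the alignments counted here were not shared with an overlapping gene on the other strand. In whole muscle, fewer cells of a type and less RNA per cell cannot be told apart.

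The tissue label was checked with markers. The skeletal muscle markers in the files (ACTA1, CKM and DES) summed to between 88448 and 165875 CPM in every pig. The satellite cell markers in the files, 7 of 8 listed and with PAX7 and MYF5 among them, summed to 67.3 to 117 CPM in Duroc (median 91.4) and 55.6 to 150 CPM in Landrace (median 97.4), with none of the 7 at 0 in every pig. The 3 endothelial markers, PECAM1, CDH5 and KDR, summed to 44.8 to 174 CPM in Duroc (median 118) and 23.8 to 138 CPM in Landrace (median 79.7).

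The first question was whether the genes differed between breeds. Differences were taken from 1 edgeR quasi-likelihood model per gene with FCR, RIN, age, breed and slaughter-day batch as terms, and a gene was called at a false discovery rate (FDR) under 0.1 over the 11146 genes tested. Of the 9 genes 4 (44.4%) were called, against 33.1% of all genes tested, which is not far from the background. MSTN and MYF6 were higher in Landrace, and PAX7 and MYOG were lower. The median fitted difference, Landrace minus Duroc, was -0.04 on the log2 scale over the 9 genes and -0.0024 over all genes. P-values measure the spread between pigs, 1 library each.

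**Figure D1:**
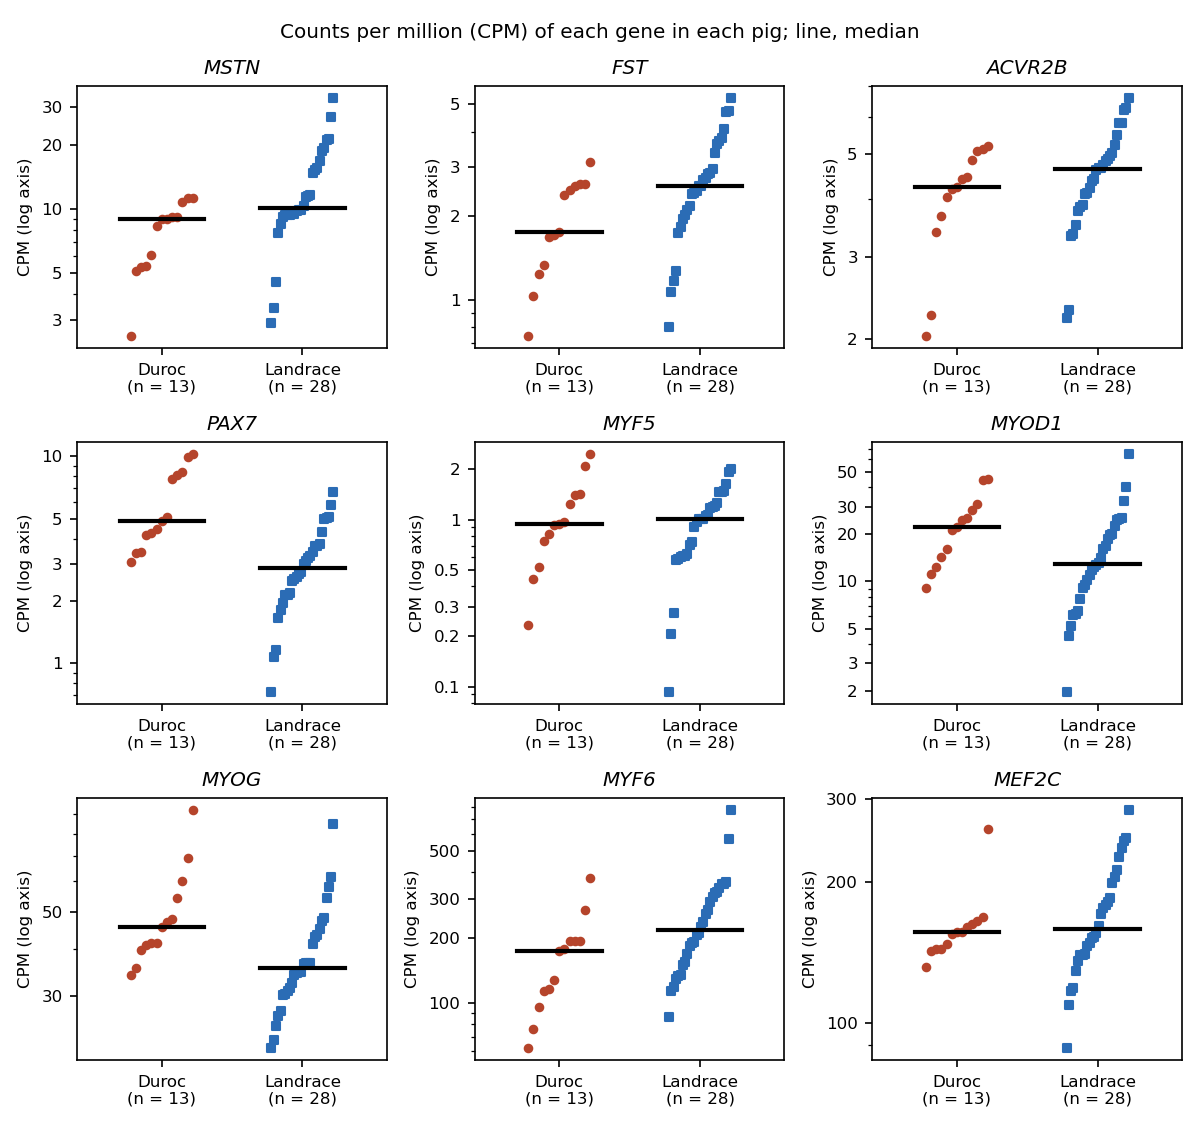
CPM of each gene in every pig, by breed, on log axes that differ between panels (points, pigs in order of level; line, median). The 13 Duroc pigs all lay above the Landrace median of PAX7, and 13 of 28 Landrace pigs lay above the highest Duroc pig for MSTN.

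MSTN encodes myostatin, and its gene lies on chromosome 15 from 94623526 to 94628440 (positions of the 9 genes are those of RefSeq on Sscrofa11.1, the assembly of the alignments). MSTN ran from 2.53 to 11.3 CPM in Duroc (median 8.97) and from 2.92 to 33.2 CPM in Landrace (median 10.1). Of the 28 Landrace pigs 13 lay above the highest Duroc pig and the low ends overlapped, so the breeds were set apart by the upper part of the Landrace range more than by the medians. In the joint model MSTN was 2.25-fold higher in Landrace (95% CI 1.45 to 3.49), a log2 difference of 1.17 ± 0.313 (SE) with FDR 0.00609. Without covariates the difference in mean log2 CPM was 0.61 (permutation test, two-sided, p = 0.0186). Landrace had the higher mean in all 4 batches that held both breeds, by 0.48 to 0.79 on the log2 scale.

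The breed difference of MSTN was smaller when fibre-type markers were in the model. The log2 ratio of summed slow-fibre to summed fast-fibre markers was -2.63 ± 0.565 (SD, n = 13) in Duroc and -3.22 ± 0.822 (SD, n = 28) in Landrace. The 3 fast-fibre troponin genes in the list, TNNT3, TNNC2 and TNNI2, were higher in Landrace, with log2 differences of 0.60, 0.53 and 0.55. Of 5 slow-fibre markers 2 were lower in Landrace, TNNI1 with a log2 difference of -0.79 and ATP2A2 with -0.73. With the ratio as a further term, the MSTN difference was 0.81 on the log2 scale and was no longer called (FDR 0.112). Breed calls over all genes fell as well, from 3692 to 2478. PAX7 moved from -1.18 to -0.97 and kept its call, while MYF6 moved from 0.99 to 0.97. The part of fibre type in these breed differences was not tested. MSTN was called in the other 15 of the 16 alternative analyses and with any 1 pig left out.

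FST, on chromosome 16 from 32806341 to 32811382, encodes the secreted inhibitor of myostatin and activin. FST ran from 0.742 to 3.10 CPM in Duroc (median 1.76) and from 0.799 to 5.28 CPM in Landrace (median 2.55). There were 8 Landrace pigs above the highest Duroc pig, and the rest of the ranges overlapped. The unadjusted difference in mean log2 CPM was 0.44 (permutation p = 0.0410), whereas the joint model gave -0.04 ± 0.269 with a 95% CI of -0.58 to 0.51 (FDR 0.946). Without the age term the fitted difference was 0.28, and without the batch term it was 0.50, neither of them called. Landrace had the higher median age, with 154.5 days against 148.

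ACVR2B, the receptor gene, lies on chromosome 13 from 23237699 to 23276086. It ran from 2.03 to 5.21 CPM in Duroc (median 4.24) and from 2.22 to 6.60 CPM in Landrace (median 4.63). The ranges overlapped over most of their length, with 7 Landrace pigs above the highest Duroc pig. No breed difference was called, and the fitted value of 0.15 ± 0.153 had a 95% CI of -0.16 to 0.46 (FDR 0.501).

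PAX7, on chromosome 6 from 77160827 to 77268626, is the paired-box factor of satellite cells and had the smallest permutation p of the 9 genes for breed. PAX7 ran from 3.07 to 10.3 CPM in Duroc (median 4.85) and from 0.724 to 6.71 CPM in Landrace (median 2.88). All 13 Duroc pigs lay above the Landrace median, and 15 of 28 Landrace pigs lay below the lowest Duroc pig. PAX7 was 2.27-fold lower in Landrace (95% CI 1.48 to 3.49), a log2 difference of -1.18 ± 0.306 with FDR 0.00467. The unadjusted difference was -0.95 (permutation p = 0.00012), and PAX7 was lower in Landrace in all 4 batches, with log2 differences from -1.91 to -0.46. The call held in all 16 alternative analyses, with FDR of at most 0.0106, and with any 1 pig left out.

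The other satellite cell markers did not share one direction. CALCR, the calcitonin receptor of quiescent satellite cells, was lower in Landrace, with a log2 difference of -1.46 (FDR 0.0157), and CDH15, the muscle cadherin, was higher by 0.54 (FDR 0.0286). NCAM1, MET and VCAM1 were not called. The summed satellite cell markers overlapped between breeds, and so did the summed endothelial markers. CDH15, at a mean of 46.9 CPM in Duroc and 58.6 CPM in Landrace, made up a large part of the satellite cell sum. In the joint model the 3 endothelial markers were each lower in Landrace, with log2 differences of -1.48 for KDR, -1.01 for PECAM1 and -0.95 for CDH5. Of the other marker lists, 1 of 4 fibroblast markers (PDGFRA, log2 difference -1.22) and 1 of 2 tested adipocyte markers (ADIPOQ, -2.67) were lower in Landrace, and 2 of 3 skeletal muscle markers, ACTA1 (0.38, FDR 0.0115) and CKM (0.24, FDR 0.0545), were higher. edgeR called 0 of 5 leukocyte and 0 of 4 immediate-early response markers, none with an unadjusted p under 0.05. The part of these other cells in the PAX7 difference was not tested.

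MYF5 and MYF6 are neighbours on chromosome 5, from 100753440 to 100755558 and from 100762918 to 100764771, with 7359 bases between them. MYF5, the earliest of the myogenic factors, ran from 0.234 to 2.47 CPM in Duroc (median 0.939) and from 0.0929 to 2.02 CPM in Landrace (median 1.01). The breeds overlapped almost throughout. In the joint model MYF5 was -0.77 ± 0.365 in Landrace against Duroc (p = 0.0414, FDR 0.118), which did not pass, and without covariates the difference was -0.13 (permutation p = 0.644).

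MYF6, also called MRF4, is the myogenic factor most associated with mature fibres. It ran from 62.0 to 376 CPM in Duroc (median 174) and from 86.6 to 774 CPM in Landrace (median 217). There were 2 Landrace pigs above the highest Duroc pig, and 11 of 13 Duroc pigs lay below the Landrace median. MYF6 was 1.98-fold higher in Landrace (95% CI 1.21 to 3.24), a log2 difference of 0.99 ± 0.349 with FDR 0.0339. The unadjusted difference was 0.60 (permutation p = 0.0184), and it was positive in all 4 batches, from 0.03 in batch 4 to 1.03 in batch 3. The call held in all 16 alternative analyses, with FDR up to 0.0994 when the fibre ratio was added.

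MYOD1, on chromosome 2 from 41422522 to 41424236, is the factor that can turn other cells into muscle. It ran from 9.11 to 44.9 CPM in Duroc (median 22.2) and from 1.97 to 65.1 CPM in Landrace (median 12.9). There were 8 Landrace pigs below the lowest Duroc pig, and 1 lay above the highest. The unadjusted difference was -0.68 (permutation p = 0.0411) and was negative in all 4 batches, from -1.87 to -0.06. The joint model gave -0.39 ± 0.370 with a 95% CI of -1.14 to 0.36 (FDR 0.472), and without the batch term -1.08 (FDR 0.0269), so whether MYOD1 was called depended on that term.

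MYOG, on chromosome 9 from 113783233 to 113785312, encodes myogenin, which drives terminal differentiation. MYOG ran from 34.1 to 92.2 CPM in Duroc (median 45.6) and from 22.0 to 85.0 CPM in Landrace (median 35.6). Of the 28 Landrace pigs 10 lay below the lowest Duroc pig, and the upper ends overlapped. MYOG was 1.37-fold lower in Landrace (95% CI 1.10 to 1.72), a log2 difference of -0.46 ± 0.160 with FDR 0.0325. The unadjusted difference was -0.37 (permutation p = 0.0140), and within batches it ran from -0.65 to -0.00021, so it was close to 0 in batch 3. MYOG also moved with RIN, and without the RIN term the breed difference was -0.19 and was not called (FDR 0.534).

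MEF2C, on chromosome 2 from 96122407 to 96296927, is the MADS-box factor that works with the myogenic factors. It ran from 132 to 259 CPM in Duroc (median 156) and from 88.5 to 285 CPM in Landrace (median 158). The medians were nearly equal, and the Landrace range reached past the Duroc range at both ends. No breed difference was called (0.23 ± 0.152, 95% CI -0.08 to 0.54, FDR 0.278).

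**Figure D2:**
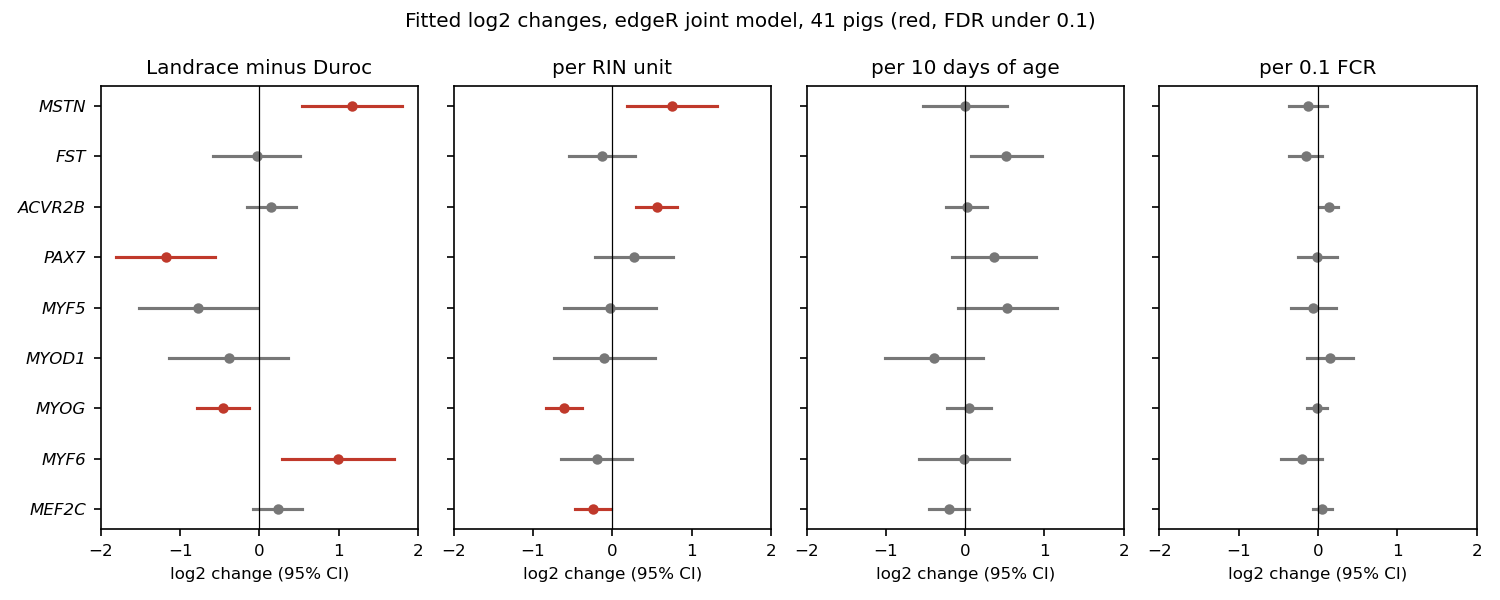
Fitted log2 changes of the 9 genes for breed (Landrace minus Duroc), RIN, age and FCR from the joint edgeR model over 41 pigs (points, estimates; bars, 95% CI; red, FDR under 0.1). There are 4 red genes for breed and 4 for RIN, and none for age or FCR.

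RNA integrity was the covariate with the most calls over all genes, and it was set against the 9 genes next. Of the 9 genes 4 (44.4%) were called for RIN, against 51.8% of all genes tested, so their share was not above the background. Per RIN unit, ACVR2B rose by 0.56 ± 0.127 on the log2 scale (FDR 0.00048) and MSTN rose by 0.75 ± 0.279 (FDR 0.0264). MYOG fell by 0.61 on the log2 scale per unit (SE 0.112, FDR 3.24e-05), and MEF2C fell by 0.25 (SE 0.113, FDR 0.0736). The estimates for PAX7, MYF5, MYOD1, MYF6 and FST lay between -0.20 and 0.27, with FDR from 0.381 to 0.939. Of these, MYOD1 was called without the batch term (-0.76, FDR 0.0281) and PAX7 with library-size scaling alone (0.59, FDR 0.0378), a scaling under which the median of all genes was 0.30. Markers of fibre and cell types moved with RIN as well. The 3 fast-fibre troponin genes fell with RIN (TNNI2 at -0.65) and ATP2A1 rose (0.66), and 4 of 5 slow-fibre markers fell (TNNI1 at -0.999). Of 4 fibroblast markers 2 rose (PDGFRA at 1.62, COL3A1 at 0.93), and of 5 leukocyte markers 2 fell (CD74 at -0.65, CD3E at -0.67). Called as well were 2 of 7 satellite cell markers (MET at 0.76, CDH15 at -0.28), 1 of 3 skeletal muscle markers (DES at -0.35) and 0 of 3 endothelial markers. With the fibre ratio as a further term 4 of the 9 genes were called for RIN, MSTN at 0.64 (FDR 0.0546) and MEF2C at -0.28 (FDR 0.0488) among them, with ACVR2B and MYOG. The part of the other markers in these slopes was not tested.

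Landrace 1 and Landrace 27 had a RIN under 7, 6.5 and 6.6. Counted from the lowest of 41, they ranked 4 and 2 for MSTN, 4 and 2 for ACVR2B, 40 and 38 for MYOG, and 39 and 38 for MEF2C. Duroc 10, with a RIN of 7.0, held the lowest MSTN of all, 2.53 CPM, and the lowest ACVR2B, 2.03 CPM. In contrast, the highest MSTN, 33.2 CPM, came from Landrace 23 with a RIN of 7.1. Without the 2 pigs under RIN 7, ACVR2B and MYOG kept their calls, and the MSTN slope was 0.28 (FDR 0.542) and the MEF2C slope -0.04 (FDR 0.888). The MSTN call for RIN was also lost with batch as a number (0.52, FDR 0.146), without the batch term (0.31, FDR 0.343), without Landrace 1 (0.58, FDR 0.169) and without Duroc 10 (FDR 0.108). The MEF2C call was lost when any 1 of 22 pigs was left out. It held in 7 of 17 alternative analyses, and DESeq2 was among those that lost it (-0.23, FDR 0.112). Within Landrace the MSTN slope was 0.59 (FDR 0.183) and within Duroc 1.50 (FDR 0.225), neither called. With the total count on genes as a further term none of the 9 was called for RIN by edgeR and 3 had an unadjusted p under 0.05. The slope of ACVR2B was then 0.53 (FDR 0.142), that of MYOG -0.38 (FDR 0.256) and that of MSTN -0.23 (FDR 0.762), and the calls over all genes fell from 5775 to 651. Under library-size scaling alone, the median of all genes moved to 0.30 per RIN unit and MEF2C to 0.06, so its fall was relative to other genes. That scaling turned the split of all RIN calls from 2667 higher and 3108 lower to 6225 higher and 882 lower. It also turned the split of the breed calls from 1737 higher and 1955 lower in Landrace to 534 higher and 3596 lower, with the median of all genes at -0.18. The 4 breed calls among the 9 genes kept their directions and their calls under it.

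**Figure D3:**
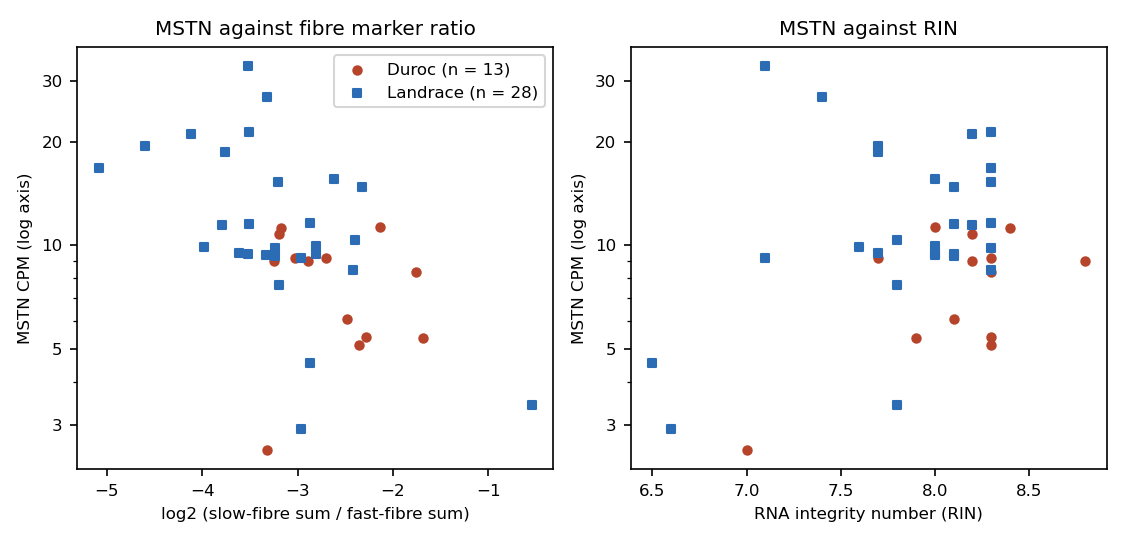
MSTN level in each pig (CPM, log axis) against the log2 ratio of slow-fibre to fast-fibre marker sums (left) and against RIN (right). The 3 pigs with a RIN of at most 7.0 lie at 2.53 to 4.55 CPM, and the 3 pigs of lowest fibre ratio lie at 16.8 to 21.1 CPM.

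Age and feed efficiency gave no calls among the 9 genes. For age, 0 of 9 were called by edgeR, against 1.76% of all genes tested, and 1 gene had an unadjusted edgeR p under 0.05. DESeq2, which tested 8 of the 9 since MYF5 had too few counts, called 0 of 8 among 545 calls over 10765 genes, and limma called 0 of 9 among 281 over 11146. The 196 age calls over all genes depended on the terms and on single pigs, with 0 by edgeR without the batch term (1013 at an unadjusted p under 0.05), 814 with batch as a number, and from 0 without Duroc 13 and 36 without Landrace 11 to 484 without Duroc 7. The gene under 0.05 was FST, at 0.52 ± 0.223 on the log2 scale per 10 days (p = 0.0256, FDR 0.236), and without the batch term it was at 0.076 (p = 0.679). MYF5 was 0.53 ± 0.306 per 10 days (p = 0.0906, FDR 0.395). MSTN was -0.0013 per 10 days with a 95% CI of -0.54 to 0.53, which leaves room for changes of either sign. Of the marker lists, 2 of 3 endothelial markers were called for age (KDR at 0.72 per 10 days, FDR 0.0693, and CDH5 at 0.45, FDR 0.0965). Their part in the age slopes of the 9 genes was not tested.

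FCR was the trait the study was built around. For FCR, 0 of 9 were called, against 0% of all genes tested, and 1 of the 9 and 968 of the 11146 genes had an unadjusted edgeR p under 0.05. DESeq2 called 5 genes, none of them among the 8 of the 9 it tested, and limma called 0. ACVR2B was the gene with p under 0.05, at 0.14 ± 0.0588 on the log2 scale per 0.1 of FCR (p = 0.0274, FDR 0.547). MSTN was -0.13 per 0.1 of FCR with a 95% CI of -0.37 to 0.11 (FDR 0.756). Without Landrace 23, the pig of highest MSTN with an FCR of 2.0, this value was -0.0072. MYF6 and FST were -0.21 (p = 0.118) and -0.16 (p = 0.142). The remaining 5 genes lay between -0.06 and 0.15 per 0.1 of FCR. For a difference between breeds in the relation to FCR, 0 of 9 were called by edgeR and limma and 0 of the 8 tested by DESeq2, against 0% of all genes by edgeR, and 0 of the 9 and 582 of all genes had an unadjusted p under 0.05. The smallest p of this interaction were 0.101 for FST and 0.102 for MSTN, with differences in slope, Landrace minus Duroc, of -0.33 (95% CI -0.74 to 0.068) and -0.38 (95% CI -0.85 to 0.080) per 0.1 of FCR, wide intervals that do not show equal slopes. With batch as a number the p of FST was 0.0385 (FDR 0.521). The MSTN difference was -0.22 without Landrace 23 and -0.17 with the total count as a term.

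The genes also differed in how far they varied from pig to pig. The median coefficient of variation (CV) over all genes tested was 22.9% in Duroc and 23.3% in Landrace. MYOD1 had a CV of 49.4% in Duroc and 77.8% in Landrace, the latter above that of 98.6% of genes, and its highest pig was 33.0-fold above its lowest. MYF6, MYF5, MSTN and PAX7 had CVs of 51.3% and 57.5%, 58.2% and 49.1%, 34.5% and 53.4%, and 43.5% and 46.6% in Duroc and Landrace. Counting error alone gives 19.5% at the mean MYF5 count, 12.6% for FST and 9.88% for PAX7, and 5.92% or less for MSTN, MYOD1, MYOG, MYF6 and MEF2C. At the other end, MEF2C (19.4% and 27.5%) and ACVR2B (25.0% and 23.9%) varied about as much as the median gene.

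The terms of the model shared this variance differently. Leaving RIN out removed 33.3% of the log2 variance of ACVR2B, 28.0% of that of MYOG and 22.4% of that of MSTN, and less than 10% for each of the other 6 genes. Leaving batch out removed 15.3% to 34.8% for 8 of the genes, the most for FST, and 1.94% for ACVR2B. Leaving breed out removed 23.4% for PAX7, where batch removed 15.3%, and 17.6% for MSTN, where batch removed 20.5%. In each of the genes but PAX7 batch, a factor of 5 levels, removed more than breed. Leaving FCR out removed 7.26% for ACVR2B and at most 4.01% for the others. These shares describe the fit and overlap where terms are related.

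**Figure D4:**
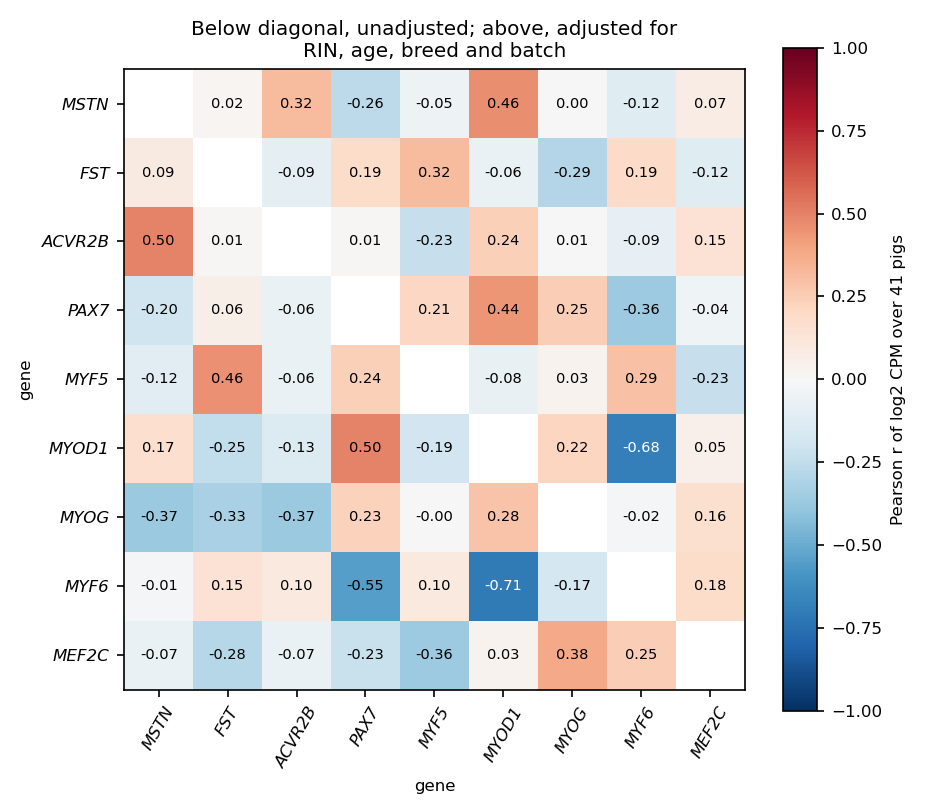
Pearson r of log2 CPM between the 9 genes over 41 pigs, unadjusted below the diagonal and adjusted for RIN, age, breed and batch above it. The darkest cells are those of MYOD1 with MYF6, -0.71 unadjusted and -0.68 adjusted.

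How the genes varied together was examined over the 41 pigs, in 36 pairs of genes and 9 relations with the fibre ratio, 45 in all. Of the pairs, 9 passed an adjusted p under 0.1 (permutation test of Pearson's r, Benjamini-Hochberg over the 45), 4 positive and 5 negative. By Spearman's rho 6 pairs passed, 5 of these 9 and MYOD1 with MYOG, while MSTN with ACVR2B, MYOG with ACVR2B, MYF5 with MEF2C and MYOG with MEF2C did not. After adjustment for RIN, age, breed and batch, 2 of the 9 were close to 0, MSTN with MYOG (r -0.369 unadjusted, 0.00016 adjusted) and MYOG with ACVR2B (-0.368 and 0.0074). MYF5 with MEF2C went from -0.362 to -0.233, and was -0.134 without 2 pigs, with a rho of -0.094 (adjusted p = 0.786 by permutation). MYOG with MEF2C went from 0.375 to 0.160, and was 0.184 without 2 pigs, with a rho of 0.310 (adjusted p = 0.218 by permutation). The strongest was between MYOD1 and MYF6, which ran in opposite directions. Pearson's r was -0.708 (permutation p = 1e-05, the smallest that 100000 resamples can give, adjusted p = 0.00045) and Spearman's rho was -0.594 (permutation p = 4e-05, adjusted p = 0.0018). The relation was -0.683 after adjustment for RIN, age, breed and batch, -0.608 without the 2 pigs farthest from the median of MYOD1, -0.542 in Duroc and -0.721 in Landrace. Within batches 2, 3 and 5 it was -0.609, -0.946 and -0.683.

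The extremes of this relation were 2 Landrace pigs. Landrace 19 had the highest MYF6 of all, 774 CPM, together with the lowest MYOD1, 1.97 CPM, and the lowest PAX7, 0.724 CPM. Landrace 23 had the highest MYOD1, 65.1 CPM, with the lowest MYF6 among Landrace pigs, 86.6 CPM, and it also had the highest MSTN. Among Duroc pigs, Duroc 5 held both the highest MYOD1, 44.9 CPM, and the lowest MYF6, 62.0 CPM.

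**Figure D5:**
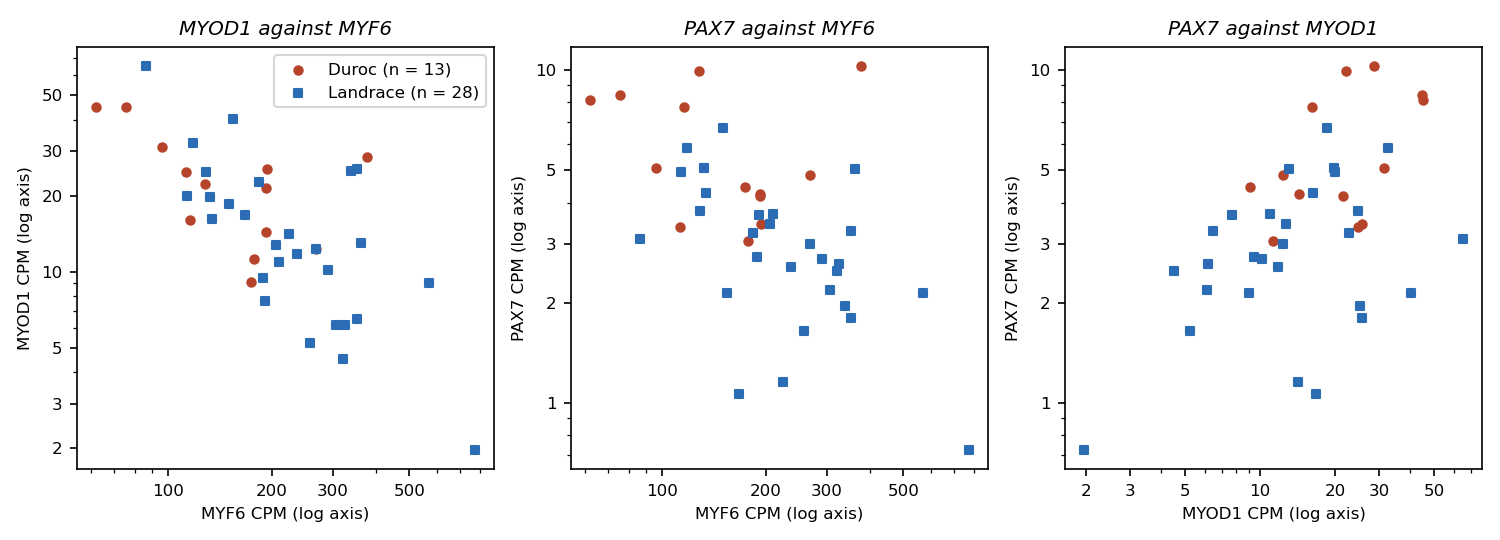
Levels of MYOD1 against MYF6, PAX7 against MYF6 and PAX7 against MYOD1 in 41 pigs (CPM, log axes; circles, Duroc; squares, Landrace). MYOD1 falls as MYF6 rises in both breeds (r of -0.542 and -0.721), and PAX7 rises with MYOD1 (r of 0.499 over all pigs).

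PAX7 followed MYOD1 and ran against MYF6. The r of PAX7 with MYF6 was -0.555 (permutation p = 0.00024, adjusted p = 0.0054; rho -0.524, permutation p = 0.00057, adjusted p = 0.0087). It was -0.362 after adjustment for RIN, age, breed and batch, -0.410 without the 2 pigs farthest from the median of MYF6, -0.203 in Duroc and -0.551 in Landrace, and -0.607, -0.709 and -0.687 within batches 2, 3 and 5. The r of PAX7 with MYOD1 was 0.499 (permutation p = 0.00095, adjusted p = 0.00882; rho 0.435, permutation p = 0.0048, adjusted p = 0.0540), 0.442 after adjustment for the 4 terms, 0.425 without 2 pigs, and 0.695, 0.661 and 0.165 within the same batches. MYOD1 and MYOG had an r of 0.282 (permutation p = 0.0748, adjusted p = 0.259; rho 0.413, permutation p = 0.00794, adjusted p = 0.0715), which was 0.266 without 2 pigs and 0.241, 0.416 and 0.206 within batches. The r of this pair was -0.301 in Duroc and 0.320 in Landrace, a difference that was not tested.

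The neighbours MYF5 and MYF6 showed no relation that passed the test (r 0.0959, permutation p = 0.550; rho 0.152, permutation p = 0.339; adjusted p of 0.774 and 0.693), and r was 0.0926 without 2 pigs and 0.192, 0.00335 and 0.0197 within batches. PAX7 and MYF5, both found in satellite cells, had an r of 0.239 (permutation p = 0.132; rho 0.140, permutation p = 0.382; adjusted p of 0.372 and 0.718), 0.0934 without 2 pigs and 0.176, 0.406 and 0.359 within batches. MYF5 and FST, the genes of lowest median count, had an r of 0.460 (permutation p = 0.00251, adjusted p = 0.0188; rho 0.395, permutation p = 0.0109, adjusted p = 0.0817). It was 0.320 after adjustment for RIN, age, breed and batch, 0.446 without 2 pigs, 0.909 in Duroc and 0.349 in Landrace, and 0.160, 0.529 and 0.568 within batches. At the counts of MYF5, part of its spread is counting error.

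MSTN and its receptor gene were related over all pigs by Pearson's r and not by rank. The r of MSTN with ACVR2B was 0.496 (permutation p = 0.00098, adjusted p = 0.00882), and rho was 0.290 (permutation p = 0.0642, adjusted p = 0.263). The r was 0.501 without 2 pigs and 0.317 after adjustment for RIN, age, breed and batch. It was 0.785 in batch 2, -0.666 in batch 3 and 0.723 in batch 5, so the relation did not hold in all batches. Both genes were lowest in Duroc 10 (RIN 7.0), followed by Landrace 27 (RIN 6.6). Next came pigs of higher RIN, Landrace 8 (RIN 7.8) for MSTN and Duroc 13 (RIN 7.9) for ACVR2B. The part of RIN alone in this relation was not tested. MSTN and its inhibitor FST had an r of 0.0915 (permutation p = 0.570; rho 0.0716, permutation p = 0.658; adjusted p of 0.778 and 0.846), 0.197 without 2 pigs and 0.594, 0.184 and -0.577 within batches 2, 3 and 5.

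Over all pigs, MSTN was the one gene of the 9 whose relation to the fibre ratio passed. Its r was -0.516 (permutation p = 0.00065, adjusted p = 0.00882) and its rho -0.523 (permutation p = 0.00058, adjusted p = 0.0087), so MSTN was higher where the ratio was lower. The r was -0.420 without the 2 pigs of most extreme ratio and -0.344 after adjustment. It was -0.535 in Landrace and -0.0692 in Duroc, a difference that was not tested, and -0.634, -0.871 and -0.308 within batches 2, 3 and 5. Over all pigs, the other 8 genes had r between -0.161 and 0.148 with the fibre ratio, with permutation p from 0.312 to 0.801. Their rho lay between -0.217 and 0.243, with permutation p from 0.126 to 0.862. Within Duroc, where MSTN was at -0.0692, the r of MYOG was -0.707 and that of PAX7 -0.504. In Landrace these were 0.0612 and -0.0546, and the differences between breeds were not tested.

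The genes whose levels ran closest to each of the 9 were found by Spearman's rho on log2 CPM adjusted for RIN, age, breed and batch, over 41 pigs and 11145 other genes. These are descriptions over shared libraries. For MSTN they were VLDLR, a lipoprotein receptor (rho 0.844), MAPK14, the p38 kinase (0.794), SYPL2, a triad junction protein (0.793), TLE1, a corepressor (0.780), and ENSSSCG00000035998, which has no symbol here (0.778). Of these, TLE1 was also higher in Landrace, 23.1 ± 10.7 CPM (SD, n = 28) against 14.0 ± 4.73 CPM (SD, n = 13) in Duroc, with a log2 difference of 1.01 (FDR 0.00456), while the other 4 were not called for breed.

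For PAX7 the closest genes were MSC (rho 0.737) and DTX4 (0.721), and both were lower in Landrace as PAX7 was. MSC, musculin, a helix-loop-helix repressor of myogenic factors, was 3.10 ± 1.41 CPM in Duroc and 1.95 ± 0.745 CPM in Landrace (log2 difference -1.15, FDR 0.000515). DTX4, a regulator of Notch signalling, was 4.02 ± 1.87 CPM in Duroc and 2.37 ± 1.16 CPM in Landrace (log2 difference -1.32, FDR 0.00456). For MYOG they were MYMK (0.648), the fusion protein myomaker, and C11orf68 (0.625). MYMK was lower in Landrace, with a log2 difference of -0.65 (FDR 0.0149), as MYOG was, and fell by 0.76 on the log2 scale per RIN unit (FDR 2.7e-05), as MYOG did.

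For the remaining genes the closest were PIK3C2B (0.723) and the interleukin receptor gene IL4R (0.674) for MYOD1, GLT8D2 (0.749) and the BMP antagonist gene CHRDL1 (0.708) for MYF5, and DEPP1 (0.714) and RASGEF1B (0.701) for MYF6. RBM26 (0.659) and the phosphatase gene DUSP10 (0.653) were closest to MEF2C, LRRC17 (0.709) and OSTF1 (0.676) to FST, and the Notch inhibitor gene NUMB (0.703) and KHDC4 (0.687) to ACVR2B. IL4R, GLT8D2 and CHRDL1 were called lower in Landrace, with log2 differences of -0.52, -0.72 and -0.69 in the joint model. Without adjustment, mean CPM in Duroc and Landrace was 12.3 and 8.57 for IL4R, 4.31 and 3.98 for GLT8D2, and 15.9 and 14.9 for CHRDL1.

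The pathway around the 9 genes was read from 3 lists. Log2 differences are those of the joint model, adjusted for the other terms, and need not match the ratio of the mean CPM given beside them. Of 22 genes of myostatin and activin signalling 15 were tested, and 6 (40%) were called for breed, against 33.1% of all genes tested, 4 higher and 2 lower in Landrace. The signal carriers SMAD4 and SMAD3 were higher, by 0.34 ± 0.0963 and 0.43 ± 0.170 on the log2 scale, as were SKIL (0.37 ± 0.119) and SKI (0.29 ± 0.120), both repressors of SMAD activity. SMURF1, a ubiquitin ligase that acts on SMADs and receptors, was lower, at -0.64 (FDR 0.00397). BMP1, one of the proteases that free myostatin from its propeptide, was lower, at -0.92 (FDR 0.0058), from 9.52 ± 3.39 CPM in Duroc to 7.93 ± 3.06 CPM in Landrace. The other type II receptor gene, ACVR2A, was 2.65 ± 0.490 and 2.61 ± 0.456 CPM (FDR 0.151). GDF11, the closest relative of myostatin, was at 0.505 ± 0.196 and 0.541 ± 0.242 CPM and too low to be tested. The median difference of the list was 0.02.

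For RIN, 3 of these 15 rose and 3 fell (40%, against 51.8% of all genes tested). The smallest p-values were those of SMAD4, at 0.42 per unit (FDR 4.83e-05), FSTL3, a follistatin-like inhibitor of activin and myostatin, which fell by 0.41 on the log2 scale (FDR 0.00162), and SKIL, at 0.34 (FDR 0.00316).

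Of 24 partners and regulators of the myogenic factors 21 were tested, and 8 (38.1%) were called for breed, against 33.1% of all genes, 2 higher and 6 lower in Landrace, with a list median of 0.04. Besides MSC, the lower ones were ID3 and ID2, inhibitors that sequester the partners of myogenic factors (-0.56 and -0.58), TCF4 and TCF3, which encode such partners (-0.47 and -0.26), and HDAC7, a deacetylase that represses MEF2 (-0.57). Their mean CPM in Duroc and Landrace lay closer, at 15.5 and 14.7 for ID3, 3.34 and 3.27 for ID2, 15.1 and 15.0 for TCF4, 6.84 and 6.56 for TCF3, and 8.95 and 7.67 for HDAC7. The fitted differences of these 5 thus depend on adjustment for the other terms. MEF2B and SRF, both MADS-box factors, were higher, by 0.30 and 0.43. SRF was 98.2 ± 18.2 CPM in Duroc and 128 ± 25.1 CPM in Landrace (FDR 0.0195). For RIN, 7 of the 21 rose and 5 fell (57.1%, against 51.8% of all genes). TEAD1 and TCF12 rose by 0.69 and 0.43 per unit and CARM1 rose by 0.76, with FDR of 1.01e-06, 1.03e-05 and 0.0004.

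Of 13 genes on which the myogenic factors are known to act, 9 were found in the files and 8 were tested. Of these 5 (62.5%) were called for breed, against 33.1% of all genes, 2 higher and 3 lower in Landrace, with a list median of -0.05. CHRNA1, the alpha subunit of the muscle acetylcholine receptor, was lower, with a log2 difference of -1.50 (FDR 0.00411), from 10.2 ± 7.06 CPM in Duroc to 6.97 ± 4.91 CPM in Landrace. MYH3, the embryonic myosin heavy chain, was lower, with a log2 difference of -0.996 (FDR 0.028), from 48.3 ± 30.8 to 23.8 ± 9.36 CPM, and MYMK was the other. CDH15 was higher by 0.54, and CKM, muscle creatine kinase, by 0.24 (FDR 0.0545). For RIN, MYMK, DES and CDH15 fell (37.5%, against 51.8% of all genes), DES by 0.35 and CDH15 by 0.28 on the log2 scale.

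None of the 44 tested genes of the 3 lists was called for FCR by edgeR, DESeq2 or limma, with 4, 5 and 4 at an unadjusted p under 0.05. By edgeR none was called for age, with 7 at an unadjusted p under 0.05, and DESeq2 and limma called 1 each. Together 19 of the 44 were called for breed, against 33.1% of all genes, and 21 for RIN, against 51.8%. With the fibre ratio as a further term 9 were called for breed, and without the batch term 10, and the calls over all genes fell as well, from 3692 to 2478 and 2434.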

How the data were processed

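Poly(A) RNA of psoas major muscle from 41 pigs was sequenced as unstranded paired-end reads. The authors used Trimmomatic 0.39 for trimming and STAR 2.7.1a with Ensembl annotation for alignment to the pig assembly Sscrofa11.1, and deposited raw read counts per gene, 1 library per pig, unstranded and for each strand. The unstranded counts were used, without the rows for unmapped or ambiguous reads, and 22188911 to 25954816 counts fell on genes per pig, 69.9% to 80.9% of read pairs in the tables. A gene name table gave symbols for 14857 of the 25880 identifiers, and positions from RefSeq on Sscrofa11.1. Genomic, promoter and protein sequences were not used here.

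Breed, RIN, FCR, age and batch came from the labels, and batch is the slaughter day. Batches 1 to 5 held 1, 3, 2, 3 and 4 Duroc and 0, 12, 7, 2 and 7 Landrace pigs. Genes passing filterByExpr (11146) were fitted with edgeR 4.0.16 (R 4.3.3), TMM factors (0.650 to 1.24) and a quasi-likelihood test on breed, RIN, FCR, age and the 5 batches (a factor), or with FCR by breed added. Benjamini-Hochberg FDR under 0.1 over all genes was the threshold, and all 9 genes passed the filter. The SE and 95% CI are those of the fitted coefficients. The fits and the permutation test were tested on simulated data. There the share of false calls was above the nominal rate with edgeR, limma and DESeq2, and the limit set for passing that test was loosened after it was seen, so FDR values here may be somewhat too small.

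Single values used permutation of breed labels (100000 resamples) on log2 (CPM + 0.1). Correlations used the same scale. The fibre ratio divides the summed CPM of TNNT1, TNNI1, TNNC1, MYL3 and ATP2A2 by that of TNNT3, TNNI2, TNNC2 and ATP2A1. Alternatives were DESeq2 1.42.0, limma 3.58.1, other scalings, filters and terms, subsets of pigs, and each pig left out. Pigs are numbered within breed in accession order.

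The 9 genes, the 3 pathway lists and the marker lists were chosen with earlier results of these data known. Genes named beyond the 9 were those of each list called for breed, age or FCR (at most 6 per list and term) or for RIN (at most 3), the 5 genes of highest rho with MSTN and the 2 of highest rho with each other gene. Single marker genes named, genes named beside these for their role, and the pigs singled out were chosen after their values were seen.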

Additional observations from a re-analysis of the deposited data

How the results depend on the processing

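No paired analysis was possible because the pigs of the 2 breeds are different animals, and their numbers here are given in accession order and pair nothing. The count of the 9 genes called for breed (4) was 3 to 5 over the alternatives, 3 without RIN and with the fibre ratio, and 4 to 5 with any 1 pig left out. The count called for RIN (4) was 2 with batch as a number, without the 2 pigs under RIN 7 and in Landrace alone. It was 3 by DESeq2 (of 8 tested), without a filter on low counts, without the batch term and without the pig of batch 1. In Duroc alone or with the total count as a term it was 0, and with 1 pig left out it was 2 to 4 (2 without Landrace 1). Of the 44 pathway genes, those called for breed (19) were 10 without the batch term and 9 with the fibre ratio (16 to 20 with 1 pig left out), while calls over all genes (3692) were 2434 and 2478. Those called for RIN (21) were 2 with the total count and 0 in Duroc alone (17 to 22), and those called for age (0) were 4 with batch as a number and 1 by DESeq2, by limma, without FCR, without the 2 pigs under RIN 7 and without the pig of batch 1 (0 to 1). The FCR counts were 0 in each of these. MYF5, not called for breed (FDR 0.118), was called by limma (0.0973), with library sizes alone (0.0521) and without FCR (0.0869).

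Some values changed sign, and apart from the RIN slopes of MSTN and MEF2C none of these had been called. The breed difference of ACVR2B was -0.024 without RIN, and -0.031 with library sizes alone, where the median of all genes moved down by as much (to -0.18). That of FST was 0.031 with batch as a number, 0.50 without batch, 0.28 without age, 0.016 without RIN and -0.17 to 0.089 with 1 pig left out. The RIN slope was 0.061 for MEF2C with library sizes alone and -0.23 for MSTN with the total count. In Duroc alone the FCR slopes of MSTN and FST were 0.024 and 0.061, and in Landrace alone -0.32 and -0.30. Those of MYOD1 and PAX7 were 0.25 and 0.31 in Duroc alone and -0.051 and -0.033 in Landrace alone. None was called (2 of the 9, FST and ACVR2B, had p under 0.05 in Landrace, and 1 of the 8 tested in Duroc). Without covariates, within single batches, MYF5 was 0.0044 and 0.041 (batches 2 and 3), MEF2C -0.060 (batch 2), FST -0.36 (batch 5) and ACVR2B -0.0061 and -0.13 (batches 3 and 4). Where no reason is given, the cause was not tested.

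Depth limits MYF5 most, with 2 to 79 counts a pig. Duroc alone is 13 pigs, and batch 1 holds 1 pig.

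By Pearson's r in place of rho, VLDLR and MAPK14 stayed the 2 genes closest to MSTN, while SYPL2 took place 34 for MSTN and NUMB place 47 for ACVR2B.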
